A study of Mus musculus with 8 samples.

Results

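Cytochrome P450 genes of families 1 to 4 were followed in the livers of female mice. The genes were those whose deposited symbol is Cyp, a family number from 1 to 4, 1 subfamily letter and a gene number. There were 64 such symbols, and 55 of them passed the filter used for all genes, which asked that 4 or more of the 8 libraries hold 10 normalized reads or more. They are 55 of 14390 genes tested. They fall into 17 subfamilies, of which 9 held 2 or more tested genes (Cyp1a, Cyp2a, Cyp2b, Cyp2c, Cyp2d, Cyp2j, Cyp3a, Cyp4a and Cyp4f) and 8 held 1. Each group had 4 libraries. WT females were wild type, and their genotype label names no Khdc3-null ancestor. F2_outcross females were also wild type in genotype, and their mother's mother was Khdc3-null. No animal of either group carried the mutation by its labelled genotype, and the sources used here do not give strain, age, diet, litter or collection time. The comparison asks whether liver expression of these genes differs with the genotype of that grandmother.

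Cytochrome P450 enzymes are haem proteins, mostly of the endoplasmic reticulum, that insert an oxygen atom into lipophilic substrates with electrons passed on by NADPH-cytochrome P450 oxidoreductase. Families 1, 2 and 3 are best known for clearing drugs, plant compounds, steroids and other foreign or fat-soluble molecules, and family 4 for oxidizing the tail end of fatty acids and eicosanoids. In the liver many of them are switched on by ligand-activated receptors (AhR for Cyp1a, CAR for Cyp2b, PXR for Cyp3a, PPAR alpha for Cyp4a), several are held at different levels in females and males by the pattern of growth hormone release, and many are made mainly near the central vein. In the mouse most of these genes lie in tandem arrays of recent duplicates, so that neighbours can be nearly identical.

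That likeness bears on how far reads can be assigned to 1 gene. It concerns Cyp2a4 and Cyp2a5, both higher in F2_outcross, and several genes given further on that share still more sequence. Cyp2a4 encodes a steroid 15-alpha-hydroxylase and lies on chromosome 7, from 26307169 to 26315088 on the plus strand (build GRCm38, GENCODE M21). Cyp2a5 encodes the coumarin 7-hydroxylase of mouse liver and lies on the same strand from 26835305 to 26843548, 520216 bases further on. Their coding sequences differed at 23 of 1482 bases (98.45% identity). The longest identical run was 216 bases, coding positions 742 to 957, and 23.2% of windows of 75 bases were the same in both. The stretch of 120 coding bases with the most differences, positions 550 to 669 counted from the A of the start codon, held 6, and is shown because reads over it can tell the genes apart. Capitals mark the differing bases, and the sequences are GENCODE M21 transcripts.
Cyp2a4 coding: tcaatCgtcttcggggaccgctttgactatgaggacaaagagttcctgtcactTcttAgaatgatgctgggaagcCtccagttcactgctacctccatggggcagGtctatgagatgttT
Cyp2a5 coding: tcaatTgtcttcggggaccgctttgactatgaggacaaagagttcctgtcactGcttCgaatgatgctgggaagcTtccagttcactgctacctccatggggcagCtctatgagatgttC

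The 250 bases before the RefSeq start of each gene were also nearly the same, with 4 of 249 aligned bases differing (98.39% identity). They are shown because both genes were higher in F2_outcross as a group, and any part of the promoters in this was not tested. The GENCODE M21 gene starts (26307169 and 26835305) lie before the ends of these windows, so by that annotation the last bases of each window are inside the gene. Capitals mark bases that differ or have no partner in the alignment (RefSeq, build GRCm38.p6, plus strand, chr7:26306942-26307191 for Cyp2a4 and chr7:26835089-26835338 for Cyp2a5).
Cyp2a4 promoter: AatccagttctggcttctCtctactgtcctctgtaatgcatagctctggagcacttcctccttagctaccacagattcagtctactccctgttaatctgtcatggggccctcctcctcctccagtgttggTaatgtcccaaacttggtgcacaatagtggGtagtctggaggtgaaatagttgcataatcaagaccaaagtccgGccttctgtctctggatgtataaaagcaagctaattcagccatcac
Cyp2a5 promoter: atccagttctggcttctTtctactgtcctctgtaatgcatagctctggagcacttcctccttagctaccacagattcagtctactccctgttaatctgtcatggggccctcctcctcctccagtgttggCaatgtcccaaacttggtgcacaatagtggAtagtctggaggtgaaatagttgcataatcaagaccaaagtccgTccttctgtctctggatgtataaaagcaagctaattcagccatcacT

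Each library held between 28028650 and 35843972 reads, and the authors had divided them by a size factor, so that 1 read was worth 0.779 to 1.04 normalized reads. These normalized reads are the level given below, as mean ± SD with n = 4 per group. Log2 changes are F2_outcross minus WT on the log2(normalized reads + 1) scale, with moderated standard errors, and adjusted p-values are from limma with Benjamini-Hochberg adjustment over all 14390 genes. The labels call the cell type hepatocyte and the tissue liver. The 10 hepatocyte markers were all present and their summed levels overlapped between the groups, but markers of Kupffer cells, sinusoidal endothelium and stellate cells were present in every library as well (6 of 6 tested in each list), so the RNA is that of liver tissue. In such bulk RNA, fewer cells of a type and less RNA per cell cannot be told apart. WT replicate 2 stood somewhat apart, with the lowest value of all 8 libraries for 19% of tested genes. It had the highest value for 18.2% of them, against 7.24% to 17.2% in the other libraries. F2_outcross replicate 3 stood apart for the Cyp4a genes. Among the 55 P450 genes, WT replicate 1 was lowest for 15 (27.3%, against 14.6% of all tested genes) and highest for 2. F2_outcross replicate 3 was lowest for 13 (23.6%, against 15%).

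As a group the P450 genes took a like share of the reads in both groups, 2.40 ± 0.0951% in WT and 2.41 ± 0.298% in F2_outcross. Of the 55 genes, 2 rose (Cyp2a4 and Cyp2a5) and 1 fell (Cyp4b1). That is 5.45% of them, beside 2.66% of all tested genes that passed the same threshold, 1.6% higher and 1.06% lower. Cyp2a4 and Cyp2a5 share sequence, so their calls are not fully separate. The count of P450 genes past the threshold was 0 to 5 when 1 library was left out. At an unadjusted p under 0.05, 12 P450 genes (21.8%) and 21.1% of all tested genes passed. The libraries of the groups did not overlap for 7 P450 genes (12.7%), 4 above and 3 below WT, beside 12% of all tested genes, 6.5% above and 5.45% below. Positive log2 changes were found for 32 P450 genes (58.2%) and for 48.9% of all tested genes. The median log2 change was 0.05 over the P450 genes and -0.01 over all tested genes. Over the P450 genes it was 0.0026 without WT replicate 1 and 0.14 without WT replicate 2.

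**Figure D1:**
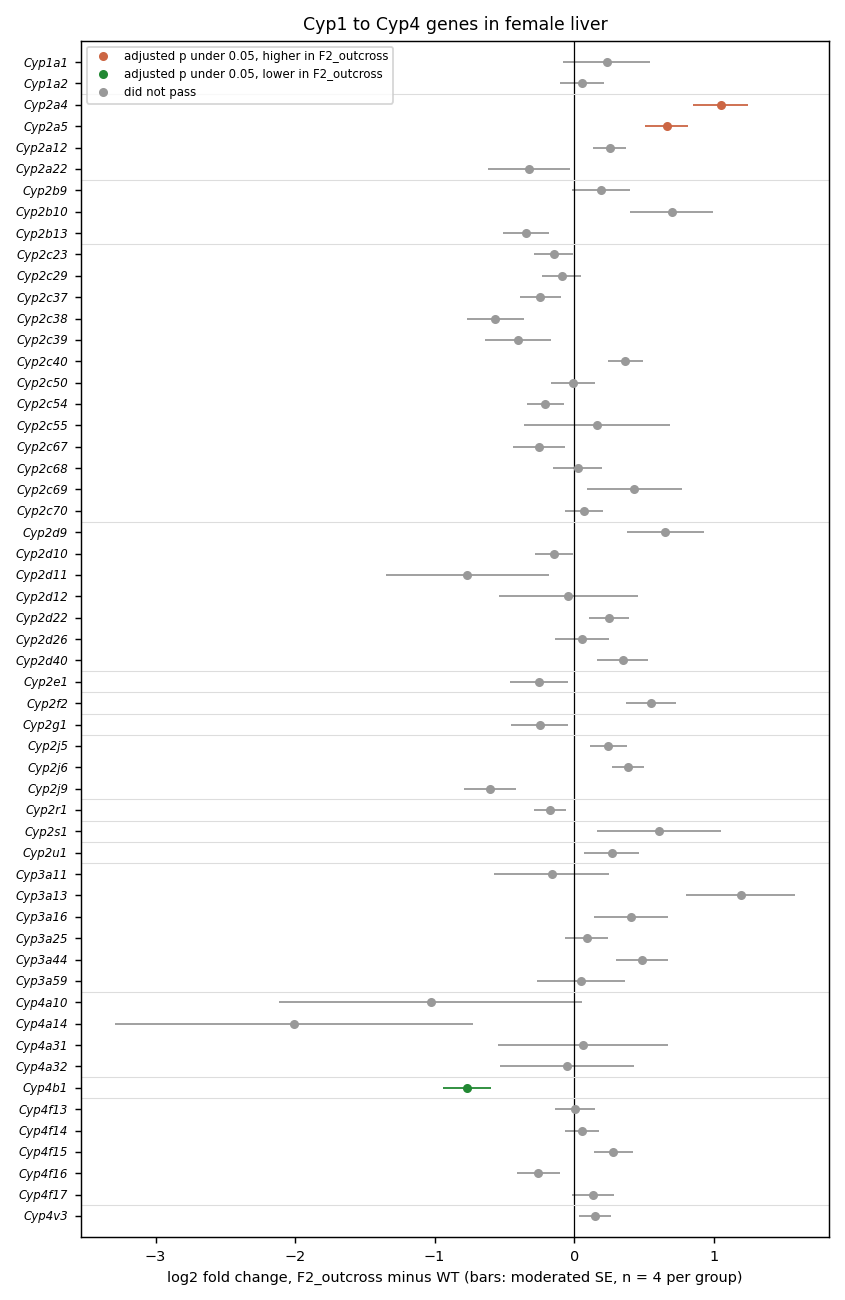
Log2 change (F2_outcross minus WT, horizontal axis) of each of the 55 P450 genes, with bars for the moderated SE (n = 4 per group) and thin lines between subfamilies. The 2 orange points (Cyp2a4, Cyp2a5) and the green point (Cyp4b1) passed an adjusted p of 0.05, and the long bars of the Cyp4a genes stand out.

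P450 levels varied more from animal to animal than those of most genes. The SD left on the log2 scale after removing the group means had a median of 0.30 over the P450 genes and of 0.22 over all tested genes. The 5 largest were those of Cyp4a14 (2.58), Cyp4a10 (2.18), Cyp4a31 (1.18), Cyp2d11 (1.08) and Cyp2c55 (0.98). At the other end, Cyp2r1, a vitamin D 25-hydroxylase, had an SD of 0.11 and Cyp2a12 one of 0.12.

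Per length and depth (RPKM, reads divided by exonic length and by library size), Cyp2e1, the ethanol- and paracetamol-oxidizing enzyme, had the highest level of the P450 genes, 2883 RPKM in WT and 2415 in F2_outcross. Next in WT came Cyp2c29 (552), Cyp3a11 (539), Cyp2c39 (514), Cyp2c70 (462) and Cyp2f2 (415), on the same scale. At the low end stood Cyp1a1, Cyp2d12 and Cyp2s1, with 0.226, 0.132 and 0.182 RPKM in WT. Thus 35 of the 55 genes had over 1000 normalized reads in every library, and 6 had a mean under 100.

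Among the Cyp2a genes, Cyp2a4 held 12225, 12396, 20261 and 16455 normalized reads in the 4 WT libraries and 26372, 40748, 25879.8 and 33308 in the 4 F2_outcross libraries. Every F2_outcross library lay above every WT library. The mean rose from 15334 ± 3822 to 31577 ± 6992, a log2 change of 1.05 ± 0.19 (2.07-fold, adjusted p = 0.0187). The call held in 6 of the 8 fits that left out 1 library. It was lost without WT replicate 1 (log2 change 0.95, adjusted p = 0.0573) and without F2_outcross replicate 2 (0.92, adjusted p = 0.0551).

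Cyp2a5 held 10226, 12338, 8548 and 13334 normalized reads in WT and 14022, 18938, 18672 and 18212.5 in F2_outcross. The groups again did not overlap, with F2_outcross replicate 1 close to the highest WT library. The mean rose from 11111 ± 2145 to 17461 ± 2312, a log2 change of 0.66 ± 0.16 (1.58-fold, adjusted p = 0.0459). This call rested on the full set of libraries. It held without WT replicate 2 (adjusted p = 0.0291) and was lost without WT replicates 1, 3 and 4 (0.131, 0.118 and 0.0578, each left out alone). It was also lost without F2_outcross replicates 1, 2, 3 and 4 (adjusted p = 0.0533, 0.0998, 0.0809 and 0.0881).

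Since the 2 genes share sequence, their sum does not depend on how shared reads were divided between them. It still depends on whether such reads were counted at all, and on reads shared with other genes. Of the 75-base stretches of Cyp2a5, 22.3% occur in any other gene and 15.7% in Cyp2a4. Together Cyp2a4 and Cyp2a5 held 22451, 24734, 28809 and 29789 normalized reads in WT and 40393, 59686, 44552 and 51520.5 in F2_outcross. All 4 F2_outcross sums lay above the WT sums, and the ratio of means was 1.85. Cyp2a4 made up 50.1% to 70.3% of the pair in WT and 58.1% to 68.3% in F2_outcross, so this share overlapped between the groups. The summed level of the 4 Cyp2a genes was 1.55 times higher in F2_outcross (47146.5 ± 4614 against 72962 ± 10689, without overlap).

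The other pair of the subfamily did not pass. Cyp2a12, which hydroxylates bile acids and testosterone, had a log2 change of 0.25 ± 0.12 (adjusted p = 0.245). Cyp2a22, whose coding sequence is 96.95% identical to that of Cyp2a12, had one of -0.32 ± 0.30 (adjusted p = 0.575).

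Cyp4b1 was the P450 gene that fell. It encodes an enzyme known from lung, where it oxidizes fatty acids and activates plant furans such as ipomeanol. It lies on chromosome 4, from 115624725 to 115647723 on the minus strand (GRCm38), next to the Cyp4a array. WT libraries held 324, 416, 429 and 367 normalized reads and F2_outcross libraries 187, 304, 180.4 and 246. All F2_outcross values lay below all WT values, although F2_outcross replicate 2 came within the SD of the lowest WT library. The mean fell from 384 ± 48.2 to 229 ± 57.8, a log2 change of -0.77 ± 0.17 (adjusted p = 0.0388). Of its 75-base stretches, 5.59% also occur in another gene's transcripts, the most in the pseudogene Cyp4b1-ps1.

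That call held without WT replicate 2 and without F2_outcross replicate 2 (adjusted p = 0.0437 and 0.0268). Leaving out WT replicate 1, 3 or 4 ended the call for Cyp4b1 (adjusted p = 0.0576, 0.107 and 0.0850). So did leaving out F2_outcross replicate 1, 3 or 4 (adjusted p = 0.111, 0.0732 and 0.0554). Its log2 change stayed between -0.91 and -0.66 in all 18 alternative settings.

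For 4 more P450 genes the groups did not overlap, but the threshold was missed. Cyp3a13, a family 3 enzyme of intestine and liver, held 1128, 1099, 1347 and 977.5 normalized reads in WT and 1926, 1799, 1638 and 7881 in F2_outcross. F2_outcross replicate 4 was thus over 4 times the next library, and the log2 change was 1.19 ± 0.39 (adjusted p = 0.114). Without that library it was 0.66 and passed (adjusted p = 0.0254).

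Cyp2j6, an arachidonic acid epoxygenase family member, held 1393, 1305, 1401 and 1808 normalized reads in WT and 2114, 1833, 1882.5 and 1835 in F2_outcross. Its log2 change was 0.39 ± 0.11 (adjusted p = 0.0911). Its neighbour Cyp2j9 held 184, 131, 196 and 123 in WT and 104.5, 83.4, 111 and 112 in F2_outcross, a log2 change of -0.60 ± 0.19 (adjusted p = 0.0973). Cyp2r1 held 366 to 384 in WT and 284 to 359.7 in F2_outcross, with a log2 change of -0.17 ± 0.11 (adjusted p = 0.403). Neither Cyp2j6 nor Cyp2j9 nor Cyp2r1 passed in any of the 8 fits that left out 1 library.

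**Figure D2:**
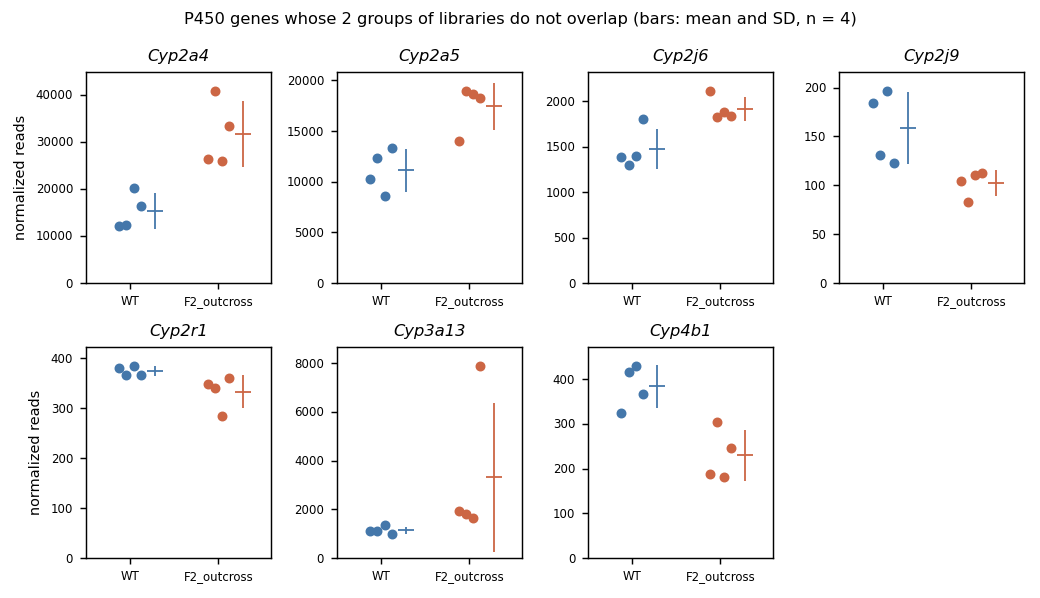
Normalized reads (vertical axes, from 0) of the 7 P450 genes whose WT (blue) and F2_outcross (orange) libraries do not overlap, 1 point per library, with bars for the mean and SD (n = 4). Cyp2a4, Cyp2a5 and Cyp4b1 passed an adjusted p of 0.05, and in Cyp3a13 a single F2_outcross library at 7881 carries most of the difference in means.

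Summed over each subfamily, the Cyp2a genes were the one set of the 9 whose groups did not overlap, beside 12% of all tested genes. Cyp2a4 and Cyp2a5, both past the threshold, made up most of that sum. Their mean was 26446 of 47146.5 normalized reads in WT and 49038 of 72962 in F2_outcross. The ratio of F2_outcross to WT was 1.04 for Cyp1a, 1.07 for Cyp2b, 0.951 for Cyp2c, 1.02 for Cyp2d and 1.19 for Cyp2j. It was 1.02 for Cyp3a, 0.977 for Cyp4a and 1.06 for Cyp4f. Leaving out 1 library at a time kept the log2 ratio of the Cyp2a sum between 0.54 and 0.69.

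**Figure D3:**
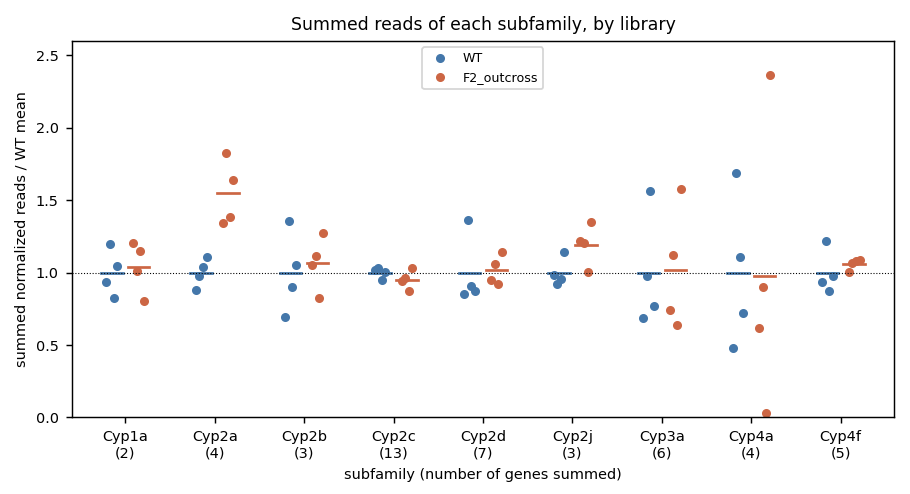
Summed normalized reads of each subfamily divided by its WT mean (vertical axis), 1 point per library, with a line for each group's mean. The number of genes summed stands in brackets. Cyp2a is separate between groups (ratio of means 1.55), while Cyp3a and Cyp4a spread widely within both groups.

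In the Cyp1a subfamily, Cyp1a2, the caffeine-oxidizing enzyme of the liver, held 16879 ± 2685 normalized reads in WT and 17569 ± 2999 in F2_outcross (log2 change 0.05 ± 0.16, adjusted p = 0.875). The sign was negative in 3 of 18 alternative settings. Cyp1a1, the classical AhR target, lay near the filter, at 17.9 ± 3.36 and 21.8 ± 6.83 normalized reads (0.23 ± 0.31, adjusted p = 0.709). Neither gene showed a difference beyond the spread between animals.

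Of the Cyp2b genes, Cyp2b10, the classical CAR target, held 1051, 2608, 2075 and 2808 normalized reads in WT and 2694, 5104, 2303 and 3498 in F2_outcross. The groups overlapped, and the log2 change of 0.70 ± 0.30 did not pass (adjusted p = 0.207). Cyp2b9, the most abundant Cyp2b gene by reads, had a log2 change of 0.19 ± 0.21 (adjusted p = 0.643). Cyp2b13 had one of -0.35 ± 0.16 (adjusted p = 0.250). Both are female-predominant in mouse liver.

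The 13 Cyp2c genes, which oxidize arachidonic acid, retinoids and drugs, included 5 with a positive and 8 with a negative log2 change, from -0.57 to 0.43, and none passed. Cyp2c29, the most read, held 48348.5 ± 5171 normalized reads in WT and 45329 ± 3433 in F2_outcross (log2 change -0.09 ± 0.14, adjusted p = 0.755). Cyp2c38 held 4852, 7219, 5086 and 5538 in WT and 3399, 3070, 3233 and 6103 in F2_outcross. Its log2 change was -0.57 ± 0.20 (adjusted p = 0.145).

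Thus 3 of 4 F2_outcross libraries lay below all WT libraries for Cyp2c38 and replicate 4 lay among them. Without replicate 4 the log2 change was -0.79 and passed (adjusted p = 0.0178). Cyp2c40 had a log2 change of 0.37 ± 0.13 (adjusted p = 0.128), and 45.9% of its 75-base stretches occur in other genes, the highest share of the 55. Cyp2c70, which makes muricholic acids in mice, held 27104 ± 589 normalized reads in F2_outcross and 26024 ± 4067 in WT (log2 change 0.07 ± 0.14). Its SD was 2.17% of the mean in F2_outcross, the smallest share there of the 55 genes, and 15.6% in WT. Cyp2c55, an arachidonic acid hydroxylase known mainly from the gut, ran from 18.4 to 117 normalized reads over the 8 libraries.

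None of the 7 Cyp2d genes passed either. Cyp2d26, the most read of them, held 15866, 27552, 16608 and 16103 normalized reads in WT and 17333, 19622, 16112 and 24729.5 in F2_outcross. WT replicate 2 stood far above the other 3, and the log2 change was 0.05 ± 0.19 (adjusted p = 0.903). Its sign was negative in 4 of 18 alternative settings. Cyp2d9, a male-predominant testosterone 16-alpha-hydroxylase, held 201, 268, 335 and 213 in WT and 535.5, 349, 585 and 216 in F2_outcross (0.65 ± 0.28, adjusted p = 0.203). Cyp2d11 had under 100 normalized reads in every library, from 6.94 to 72.8 (log2 change -0.77 ± 0.58, adjusted p = 0.485).

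The single genes Cyp2e1 and Cyp2f2 differ in where the liver makes them, Cyp2e1 near the central vein and Cyp2f2, a naphthalene-oxidizing enzyme, near the portal vein. Cyp2e1 held 190463, 183445, 166565 and 169911 normalized reads in WT and 154839, 141039, 114728 and 196077 in F2_outcross. Here 3 of 4 F2_outcross libraries lay below WT and replicate 4 above it (log2 change -0.25 ± 0.21, adjusted p = 0.528). Cyp2e1 took 26.0 ± 2.95% of all P450 reads of families 1 to 4 in WT and 21.6 ± 2.16% in F2_outcross, with overlap.

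Cyp2f2 held 18207, 32270.2, 22414 and 23542 normalized reads in WT and 34203, 43421, 30713 and 31211 in F2_outcross. WT replicate 2 lay among the F2_outcross libraries, and the log2 change of 0.55 ± 0.18 did not pass (adjusted p = 0.115). Without WT replicate 2 it was 0.70 and passed (adjusted p = 0.0265). Cyp2g1, an olfactory P450, Cyp2s1, an epithelial one, and Cyp2u1, a fatty acid hydroxylase, had log2 changes of -0.25 ± 0.20, 0.61 ± 0.44 and 0.27 ± 0.20, and none passed.

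Cyp2j5, the most read of the 3 Cyp2j genes and an arachidonic acid epoxygenase, held 19179 ± 1813 normalized reads in WT and 22796 ± 2954 in F2_outcross (log2 change 0.24 ± 0.13, adjusted p = 0.311). The 3 genes lie side by side on chromosome 4, between 96516138 and 96664154, with log2 changes of 0.24, 0.39 and -0.60.

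Of the 6 Cyp3a genes, 5 had a positive log2 change and none passed. Cyp3a11, the main drug-clearing Cyp3a enzyme of mouse liver and a PXR target, held 43535, 77154, 143291 and 52457.5 normalized reads in WT. In F2_outcross it held 42384, 82719, 37249 and 123558. The highest library was over 3 times the lowest in each group, the groups covered nearly the same range, and the log2 change was -0.16 ± 0.41 (adjusted p = 0.859). Its sign was positive in 3 of 18 alternative settings. Cyp3a44 and Cyp3a16, both female-predominant, had log2 changes of 0.49 ± 0.19 and 0.41 ± 0.26 (adjusted p = 0.164 and 0.407).

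The Cyp4a genes, the fatty acid omega-hydroxylases induced through PPAR alpha, varied most. Cyp4a10 held 2736, 8615, 5269.6 and 4226 normalized reads in WT and 3766, 5094, 114.5 and 13749 in F2_outcross. Cyp4a14 held 706, 3955, 2689 and 963 in WT and 389, 1279, 13.9 and 3716 in F2_outcross. In both genes F2_outcross replicate 3 was far below every other library. The WT mean was 45.5 times the value of that library for Cyp4a10 and 149.8 times for Cyp4a14, and the next lowest library was 23.9 and 28.0 times as high.

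Cyp4a31 and Cyp4a32 were lowest in the same library, at 13.9 and 100.6 normalized reads, against 52.2 to 204 and 240 to 639 in the other 7. F2_outcross replicate 4 was the highest of the 8 for 3 of the 4 genes. The log2 changes of the 4 genes were -1.03 ± 1.09, -2.01 ± 1.28, 0.06 ± 0.61 and -0.05 ± 0.48, in the order Cyp4a10, Cyp4a14, Cyp4a31, Cyp4a32. None passed, and the adjusted p of Cyp4a14 was 0.399. Without F2_outcross replicate 3 they were 0.42, -0.42, 0.83 and 0.56, so the sign turned for Cyp4a10 and Cyp4a32. The log2 ratio of the Cyp4a sums was -0.03 with all libraries, 0.37 without F2_outcross replicate 3, 0.34 without WT replicate 2 and -0.96 without F2_outcross replicate 4.

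Other PPAR alpha targets had the same extremes. Of 16 tested targets outside the P450 genes, 13 (81.2%) were lowest in F2_outcross replicate 3 and 11 (68.8%) highest in F2_outcross replicate 4. Among all tested genes the shares were 15% and 13.9%. Vnn1, the pantetheinase vanin 1, held 413 to 750 normalized reads in WT and 247, 288, 39.9 and 812 in F2_outcross. Acot1, a cytosolic acyl-CoA thioesterase, held 145 to 267 in WT and 313, 402, 50.3 and 791.5 in F2_outcross. None of the 16 passed between the groups, with a median log2 change of 0.02. Ppara itself did not pass (0.46 ± 0.17, adjusted p = 0.164). The sources used here do not give feeding state or collection time, which PPAR alpha targets are known to follow, and their part in these values was not tested.

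**Figure D4:**
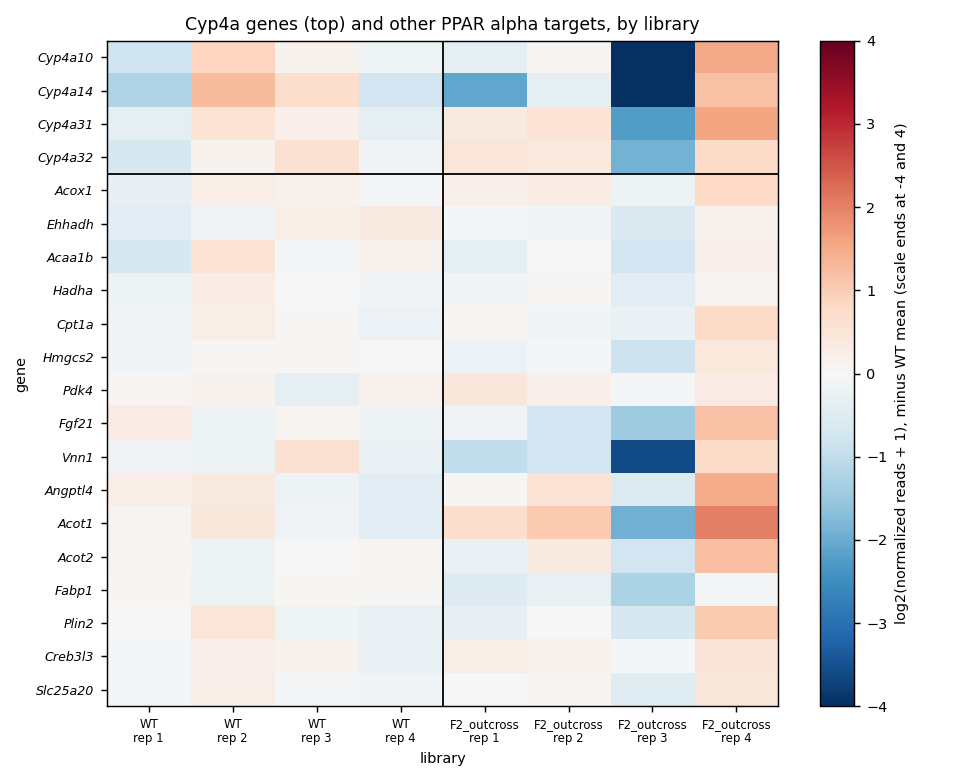
Log2(normalized reads + 1) minus the WT mean (colour) of the 4 Cyp4a genes, above the line, and of 16 other PPAR alpha targets, in each of the 8 libraries. F2_outcross replicate 3 is the lowest library for 4 of 4 Cyp4a genes and 13 of 16 other targets, and F2_outcross replicate 4 the highest for 3 and 11.

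The 5 Cyp4f genes, which oxidize leukotrienes and related fatty acids, did not pass. Cyp4f14, the most read and a leukotriene B4 omega-hydroxylase, held 11908 ± 1704 normalized reads in WT and 12319 ± 609 in F2_outcross (log2 change 0.06 ± 0.12, adjusted p = 0.821). Cyp4f15 and Cyp4f16 had log2 changes of 0.28 ± 0.14 and -0.26 ± 0.15 (adjusted p = 0.270 and 0.362). Cyp4v3, a fatty acid omega-hydroxylase, had one of 0.15 ± 0.11 (adjusted p = 0.479).

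By position, 49 of the 55 genes lie in 8 clusters with gaps of at most 1 Mb. The Cyp2a4 and Cyp2a5 cluster on chromosome 7, from 25802475 to 27133660, holds 10 of the genes, in the order Cyp2s1, Cyp2b10, Cyp2b13, Cyp2b9, Cyp2a4, Cyp2g1, Cyp2a5, Cyp2a22, Cyp2a12 and Cyp2f2. Log2 changes were positive for 7 of them and negative for 3, with a median of 0.40. Cyp2g1, which lies between the 2 genes that rose, had a log2 change of -0.25, and Cyp2a22, just beyond Cyp2a5, one of -0.32. In the Cyp4a and Cyp4b1 cluster on chromosome 4, from 115486200 to 115647723, 4 of 5 were negative with all libraries.

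Sharing of sequence was not limited to Cyp2a. In GENCODE M21 transcripts, 20 of the 55 genes had over 10% of their 75-base stretches in another gene, 9 had over 20% and 11 had none. The highest shares after Cyp2c40 were those of Cyp2c69 (42.6%), Cyp2c67 (36%), Cyp2c68 (28.5%) and Cyp4a32 (28%). Cyp2a5 and Cyp2a4 had 22.3% and 22.1%. The sources used here do not give the read length, and with stretches of 50 bases the shares were higher. Then 26 genes had over 10%, 20 had over 20% and 7 had none, with 38% for Cyp2a4, 37% for Cyp2a5 and 60.3% for Cyp2c40. The sources used here do not say how the authors' counting treated such reads, so the level of any of these genes may hold reads of its neighbours.

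**Figure D5:**
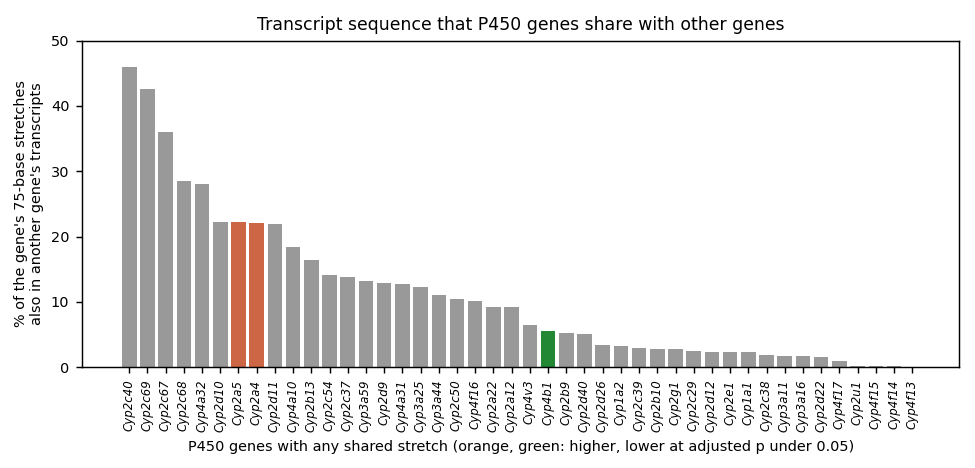
Share of each gene's 75-base transcript stretches that also occur in another gene's transcripts (vertical axis, %), for the P450 genes with any shared stretch. Cyp2c40 leads at 45.9%, the 2 genes that rose (orange) stand at 22.3% and 22.1%, and Cyp4b1 (green) at 5.59%.

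Promoters were given by RefSeq for 45 of the 55 genes and 27025 genes in all. The 250 bases before the start were searched on both strands, and the 50 after it were left out. TATAAA, the core of the TATA box, was found in 22 of the 45 (48.9%) and in 13% of all promoters. In the promoters of Cyp2a4 and Cyp2a5 printed above it begins 28 and 29 bases before the RefSeq start. AGGTCA, a core site of nuclear receptors, was found in 11 (24.4%) and in 13.8% of all. GCGTG, the core of the AhR response element, was found in 7 (15.6%) and in 28.2% of all. TTCNNNGAA, the element of STAT factors, was found in 2 (4.44%), Cyp4b1 and Cyp4f13, and in 7.18% of all. Of these 4 motifs the windows of Cyp2a4 and Cyp2a5 hold the first alone. Matches here describe letters only, and the absence of a match says nothing of a factor.

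Of 11 genes for electron partners and haem, 1 rose, beside 1.6% of all tested genes. Por, the oxidoreductase that passes electrons to all of these enzymes, held 10502 to 15945 normalized reads in WT and 18318 to 25079.8 in F2_outcross, without overlap. Its mean rose from 13459 ± 2588 to 22438 ± 2956, a log2 change of 0.75 ± 0.16 (adjusted p = 0.0313). The call held without WT replicate 2 and without F2_outcross replicate 3. It was lost without WT replicate 1, 3 or 4 (adjusted p = 0.0891, 0.0578 and 0.0860) and without F2_outcross replicate 1, 2 or 4 (0.0831, 0.0771 and 0.0617). Cyb5a, cytochrome b5, and Alas1, the first enzyme of haem synthesis, did not pass (log2 change -0.15 ± 0.14 and -0.38 ± 0.29).

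Among 19 tested receptors and liver transcription factors, 2 rose and 1 fell, beside 1.6% and 1.06% of all tested genes. Nr1i2, the gene of PXR, held 2092, 2063, 2171 and 2130.5 normalized reads in WT and 3263, 3491, 2731 and 3656 in F2_outcross. The WT libraries were close together and all lay below F2_outcross. The log2 change was 0.63 ± 0.10 (adjusted p = 0.0121), and the call held in all 8 fits that left out 1 library. In the same animals the PXR target Cyp3a11 had a log2 change of -0.16 ± 0.41, with a wide spread within each group. The other 5 tested Cyp3a genes had positive log2 changes, and none passed. Whether any of these levels follow Nr1i2 was not tested. Nr1i3, the gene of CAR, and Ahr did not pass (0.14 ± 0.17 and 0.22 ± 0.10, adjusted p = 0.677 and 0.230).

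The other factor that rose was Cux2, a female-specific repressor in liver, with a log2 change of 1.00 ± 0.21 (adjusted p = 0.0315). The one that fell was Foxa3, a forkhead factor of hepatocytes, with -0.65 ± 0.15 (adjusted p = 0.0438). Each of these 2 calls was lost in 6 of the 8 fits that left out 1 library, those without WT replicate 1, 3 or 4 and without F2_outcross replicate 1, 2 or 4. In that order the adjusted p-values of Cux2 were 0.0927, 0.0867, 0.0751, 0.0786, 0.0551 and 0.0598. Those of Foxa3 were 0.0989, 0.0745, 0.110, 0.108, 0.0915 and 0.0895. Outside the P450 genes, 1 of 12 tested CAR and PXR targets rose (Por), beside 1.6% of all tested genes. None of 4 AhR targets passed.

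Of 14 P450 genes known as female-biased in mouse liver, 11 of them among the 55, 1 rose (Cyp2a4), none fell, and the median log2 change was 0.42. Beside this and the lists that follow, 1.6% of all tested genes rose and 1.06% fell. None of 3 male-biased genes passed. Of 8 pericentral P450 genes 1 rose (Cyp2a5), and the median was -0.13. Periportal genes in a list of 10, which included Cyp2f2, had a median of 0.41, with 2 risen, Sds and Gls2. The call of Gls2 was lost without WT replicate 1, 3 or 4 (adjusted p = 0.0695, 0.0725 and 0.0735) and without F2_outcross replicate 2 or 4 (0.0690 and 0.0526). Pericentral genes outside the P450s, also 10, had a median of 0.14, with 2 risen, Slc1a2 and Tbx3.

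Markers of other liver cells are given for the same libraries. None of 6 Kupffer cell markers passed, but all 6 had negative log2 changes (median -0.74), and their summed level was 11954 to 27904 normalized reads in WT and 10346 to 14718 in F2_outcross. Of 6 lymphocyte markers 1 fell (Nkg7), and their summed level was 155 to 414 in WT and 86.3 to 145 in F2_outcross, without overlap. Among all tested genes 1.06% fell, and the groups did not overlap for 12%. The call of Nkg7 was lost without WT replicate 1, 3 or 4 (adjusted p = 0.141, 0.0938 and 0.0971) and without F2_outcross replicate 1, 2 or 4 (0.118, 0.0941 and 0.0682). All 6 lymphocyte markers had negative log2 changes, with a median of -1.24. None of 5 erythroid markers passed, but all 5 had negative log2 changes too (median -0.90), with summed levels of 9841 to 24225 in WT and 6448 to 16989 in F2_outcross. The highest Kupffer cell, lymphocyte and erythroid sums were all those of WT replicate 1. For Kupffer cells WT replicate 2 (11954) lay within the F2_outcross range, and WT replicates 3 and 4 (18970 and 19579) lay above it. None of the 10 hepatocyte, 6 endothelial, 6 stellate or 3 bile duct markers passed, with medians of -0.13, 0.06, -0.06 and 0.48. No marker of these lists was at 0 in every library. Their part in the P450 differences was not tested.

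The 9 symbols under the filter were Cyp1b1, Cyp2b23, Cyp2c65, Cyp2d34, Cyp2j8, Cyp3a57, Cyp4f18, Cyp4f37 and Cyp4f39. Cyp1b1, which is known from cells other than hepatocytes, had 4 to 18 reads a library, 38 in all WT libraries and 29 in all F2_outcross libraries. Cyp2d34 had 0 to 42 reads, and Cyp2c65 had 0 reads in every library, where a count of 0 allows up to 3 reads. For all 55 genes both group means were above 10 normalized reads. Single libraries could lie below, such as F2_outcross replicates 2 and 4 for Cyp2d12 (9.59 and 4.87).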

How the data were processed

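Total RNA of 8 livers was isolated (a column kit meant for fatty tissue) and made into strand-specific libraries, per the labels' protocols. Per the submitters' processing notes, cutadapt, HISAT2, DESeq2 and build GRCm38 were used, with roles and versions unstated. Which program counted reads, with which annotation and strand setting, is not given in the sources used here. The deposited table, per the file headers 1 symbol column and 8 library columns, holds the authors' log2 values. The lowest, -3.32, is log2 of 0.1. Once that constant was taken off on the linear scale, 100% of values were whole multiples of 1 step per library, to within 0.001 reads. The values were therefore read as normalized reads plus 0.1, which also gave the whole reads of each library. Rows without a symbol (395, 0.611% to 1.22% of reads) were left out. No 2 libraries were copies, with a chi-square of 39.0 or more per degree of freedom for every pair. Nothing in the labels says that the livers came from separate litters, so p-values measure only the spread between these samples. Read counts and floors cover counting error only.

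Genes that reached 10 normalized reads in 4 libraries or more were fitted with limma 3.58.1 in R 4.3.3 on log2(normalized reads + 1), which understates changes of low genes (eBayes with trend, two-sided, Benjamini-Hochberg over all genes, threshold 0.05), with group as the only term. The design had foreseen linear values, so the deposited log2 values were first returned to that scale. The fit was also run on simulated reads with 1 common spread setting for all genes, unlike these data, and no result here rests on it. RPKM values here are reads divided by GENCODE exonic length and library size. Sums per subfamily, medians and lists are descriptions with no test. The P450 genes and all gene lists were chosen with earlier results of these data known. The genes named are those past the threshold, the most read gene and the smallest p in each direction of each subfamily, the 5 largest SDs and, in each list, genes past the threshold and the smallest p. Other genes were named after their values were seen, among them Cyp2c70, Cyp2a12, Cyp3a44, Cyp3a16, Vnn1, Acot1, Ppara, Ahr and Nr1i3. Coordinates, coding sequences and shared stretches are from GENCODE M21, which may not be the authors' annotation, and promoters from RefSeq. Alternatives were pseudocounts of 0.5 and 5, no filter, a mean of at least 50, TMM, upper quartile and quantile scaling, limma voom on the whole reads, robust moderation, leaving out each library, and a threshold of 0.1. The log2 values as deposited were added after seeing the data.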

Additional observations from a re-analysis of the deposited data

Results flagged for a closer look

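In 5 of 86 groups of 4 libraries looked at, 1 library stood apart from the other 3 by more than Dixon's critical value at 95%, and chance alone gives about 1 in 20. Cyp2a5 was lowest in F2_outcross replicate 1, at 14022 normalized reads, with the other 3 between 18212.5 and 18938. Cyp2c38 was highest in F2_outcross replicate 4, at 6103, with the others between 3070 and 3399. Cyp3a13 was highest in the same library, at 7881, with the others between 1638 and 1926. Cyp2d26 was highest in WT replicate 2, at 27552, with the others between 15866 and 16608. The summed Cyp2d level was highest there too, at 62846, with the others between 39415.5 and 41938, and it includes Cyp2d26.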

How the results depend on the processing

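No paired analysis was possible because the labels give no replicate numbers, litters or batches, and the numbers used here only name libraries. The count of 3 P450 genes past the threshold was 1 (Cyp2a4) with quantile normalization, 5 at a threshold of 0.1 (adding Cyp2j6 and Cyp2j9), and 0 to 5 when 1 library was left out, 0 without WT replicate 1 and 5 without WT replicate 2 (adding Cyp2f2 and Cyp2d22). It was 1 without WT replicate 3 or 4 or F2_outcross replicate 1, 2 or 3. Over all genes, 383 passed, 1073 at a threshold of 0.1, and 111 (without F2_outcross replicate 2) to 1073 (without WT replicate 2) when 1 library was left out. Cyp2a5 was lost with no filter (adjusted p = 0.0597), upper quartile scaling (0.0502), quantile normalization (0.0543) and limma voom (0.0506), and Cyp4b1 with quantile normalization (0.0504). Cyp2a4 passed in 16 of 18 alternatives, with adjusted p-values from 0.0138 to 0.0573. The median log2 change of the P450 genes, 0.05, ranged from -0.0030 (quantile normalization) to 0.14 (without WT replicate 2). The log2 ratios of the Cyp2a, Cyp2c, Cyp2j and Cyp4f sums kept their sign. Those of 5 sums turned in some fits that left out 1 library, and ran from -0.02 to 0.16 for Cyp1a, -0.05 to 0.27 for Cyp2b, -0.04 to 0.21 for Cyp2d, -0.26 to 0.33 for Cyp3a and -0.96 to 0.37 for Cyp4a. No called gene changed sign. Of the 52 that did not pass, 15 changed sign in 1 or more of the 18 alternatives (17 for Cyp2d12): Cyp1a2, Cyp2c50, Cyp2c55, Cyp2c68, Cyp2c70, Cyp2d12, Cyp2d26, Cyp3a11, Cyp3a25, Cyp3a59, Cyp4a10, Cyp4a31, Cyp4a32, Cyp4f13 and Cyp4f14. With 4 libraries a group, a rank-based exact test could not give a p under 0.0286.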

Other observations

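P450 genes outside the 55 were also measured. Of 13 tested genes of the other families, which mostly act on sterols, bile acids, retinoids and steroid hormones, 2 rose and none fell. The shares over all tested genes were 1.6% and 1.06%. Cyp39a1, an oxysterol 7-alpha-hydroxylase of bile acid synthesis, held 676, 595, 777 and 797 normalized reads in WT and 2136, 1887, 1447 and 1758 in F2_outcross. Its log2 change was 1.34 ± 0.14 (adjusted p = 0.000666), and the call held in all 8 fits that left out 1 library. Cyp7a1 was the other gene. The median log2 change of the 13 was 0.19.

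Symbols that end in a letter were left out of the 55 by their spelling. Of the 2 tested, Cyp3a41b held 2555, 1612, 1271 and 2453 normalized reads in WT and 3391, 2918, 3068 and 3836 in F2_outcross, without overlap (log2 change 0.80 ± 0.20, adjusted p = 0.0559). Cyp3a41a had one of 0.54 ± 0.15 (adjusted p = 0.0818). Both are female-predominant Cyp3a genes, and neither passed. Their coding sequences differ at 2 of 1512 bases (99.87% identity). Of their 75-base stretches, 95.3% (Cyp3a41a) and 90.9% (Cyp3a41b) also occur in another gene. Their separate levels therefore depend on how shared reads were divided. Summed with Cyp4a12a and Cyp4a12b, which were under the filter, they held 3770 to 6513 normalized reads in WT. In F2_outcross that sum was 6931 to 9225, without overlap. The groups did not overlap for 12% of all tested genes. The sum joins Cyp3a and Cyp4a genes, but nearly all of it is Cyp3a41a and Cyp3a41b, so it largely repeats their levels.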
